A study of Mus musculus with 8 samples.

Results

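The genes described here are 10 genes of the stress and mechanosensing apparatus of striated muscle: Csrp3, Ankrd1, Ankrd2, Ankrd23, Xirp1, Xirp2, Flnc, Nrap, Igfn1 and Mustn1. They were chosen by name, and each was read from the array row whose platform annotation names that symbol alone, taking the brightest row if there were several. Each of the 10 had exactly 1 such row, so brightness decided nothing, and all 10 were among the 15007 genes tested, out of 24922 rows in the deposited table. The members were named with differences between the genotypes already known, so those differences are given below as a description, with no test of any member.

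The question of the study was how ST2, which receives the interleukin-33 signal, acts in regulatory T cells while muscle regenerates. Gene expression was measured in whole tibialis anterior, a muscle of the shin, dissected and trimmed, 8 days after a freezing injury of 8 seconds, in male C57BL/6 mice of 10 weeks by the sample labels and 2 months by the series text. The 4 ST2FL samples carried floxed ST2 (ST2 FL/Foxp3-Cre) and the 4 ST2WT samples wild-type ST2 (ST2 WT/Foxp3-Cre), so both groups carried Foxp3-Cre, which acts in cells that express Foxp3, and all 8 muscles were injured. There was no uninjured muscle among the samples, and nothing states that samples with different numbers came from different animals, so the errors given cover the spread among these arrays and part of it may be technical. Each sample was read on 1 Affymetrix Mouse Gene 1.0 ST array, and the arrays are called here by group and sample number. A log2 intensity is the base 2 logarithm of the deposited intensity, so that a difference of 1 is a doubling. In bulk tissue, fewer fibres of a kind and less RNA per fibre cannot be told apart.

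Striated muscle senses load where its contractile filaments are anchored. The Z-disc, the spring-like I-band region of titin and the junction of fibre and tendon carry proteins that bind filaments and also move to the nucleus or to damaged sites when the muscle is stretched. Ankrd1, Ankrd2 and Ankrd23 encode the muscle ankyrin repeat proteins, which bind titin in the I-band and are known for their induction by stretch, injury or denervation. Csrp3 encodes muscle LIM protein, a Z-disc and nuclear adaptor. Xirp1 and Xirp2 encode the Xin actin-binding repeat proteins, Flnc the actin crosslinker filamin C and Nrap the nebulin-related anchoring protein of myofibril assembly and myotendinous junctions. Igfn1 encodes an immunoglobulin-like and fibronectin type III protein of the Z-disc, and Mustn1 a small protein of the musculoskeletal system whose gene was first found in fracture repair.

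The promoters of Csrp3, Ankrd2 and Ankrd1 are shown because the first and second of these genes varied together across the arrays and the third, of the same ankyrin repeat family as Ankrd2, did not vary with them. The sequences are from RefSeq (GRCm38.p6) and run from 250 bases before to 50 bases after a start of the gene, on its strand. For Ankrd2 this start lies downstream of the first base listed for the gene, 42035917. The sequences carry in capitals 2 motifs found on either strand. These are the E-box CANNTG, bound by myogenic factors, and CATTCC, the core of the M-CAT element bound by TEAD factors. On the other strand CATTCC reads GGAATG.
Csrp3, chr7:48848002-48848301, minus strand: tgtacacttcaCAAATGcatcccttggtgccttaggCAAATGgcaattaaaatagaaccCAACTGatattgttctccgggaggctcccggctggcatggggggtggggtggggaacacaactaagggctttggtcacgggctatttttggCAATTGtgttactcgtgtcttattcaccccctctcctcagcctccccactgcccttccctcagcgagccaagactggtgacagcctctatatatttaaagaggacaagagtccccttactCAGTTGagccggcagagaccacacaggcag
Ankrd2, chr19:42035777-42036076, plus strand: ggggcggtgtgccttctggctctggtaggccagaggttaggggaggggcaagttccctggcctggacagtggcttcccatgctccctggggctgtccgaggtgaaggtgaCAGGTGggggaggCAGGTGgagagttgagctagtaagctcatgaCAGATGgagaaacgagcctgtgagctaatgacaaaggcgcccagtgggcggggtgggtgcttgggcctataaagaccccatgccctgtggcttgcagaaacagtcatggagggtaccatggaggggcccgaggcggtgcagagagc
Ankrd1, chr19:36119795-36120094, minus strand: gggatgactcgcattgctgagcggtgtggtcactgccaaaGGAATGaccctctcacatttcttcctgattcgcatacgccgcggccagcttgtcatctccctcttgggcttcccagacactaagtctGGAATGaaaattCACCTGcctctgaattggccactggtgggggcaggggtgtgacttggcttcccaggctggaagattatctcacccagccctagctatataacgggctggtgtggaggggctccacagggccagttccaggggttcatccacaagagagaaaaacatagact
The Csrp3 window held 5 E-boxes and the Ankrd2 window 3, neither with a CATTCC. The Ankrd1 window held 2 CATTCC matches, both on the opposite strand, at positions -210 to -205 and -123 to -118 from the gene start, beside 1 E-box at -111 to -106. RefSeq windows were matched for 9 of the 10 genes, 12 windows in all. CATTCC occurred in 6 of these 12 windows, all of them of Ankrd1, Ankrd23, Flnc or Mustn1, against 14.7% of all 32851 promoter windows. CANNTG occurred in 8 of the 12, against 72.3% of all windows. The CArG box of serum response factor occurred in 0 of the 12 (1.63% of all windows), the MEF2 box in 1, of Xirp2 (3.19% of all windows), and TATAAA in 1, of Ankrd2 (13.6% of all windows). Windows of 1 gene can overlap, so they are not independent. The 2 Flnc windows did overlap, and the same CATTCC site is counted in both. By gene, CATTCC occurred in 4 of the 9, and no share by gene was computed for all promoters. Nothing is read from these shares. A match is a stretch of letters and was not tested for use in these muscles.

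Between the genotypes, 9 of the 10 genes differed by less than their pooled within-group SD, and Igfn1 by more. The mean was higher in ST2FL muscle for 7 members and lower for 3, where 48.8% of all genes tested had a higher mean in ST2FL. The median difference was 0.10 log2 over the members and -0.0025 over all genes. The groups overlapped for all 10 members, and 1.97% of all genes had groups that did not overlap. Nothing is read from these counts, because the members were named with this contrast known. Over all genes, 0% passed an adjusted p of 0.05 in limma and 3.79% had an unadjusted p under 0.05. ST2FL array 4 had correlations over all genes of 0.976 and 0.980 with ST2FL arrays 1 and 2, lower than for any other pair of arrays. With ST2FL array 3 its correlation was 0.990, and with the ST2WT arrays 0.988 to 0.993. Without ST2FL array 4, 20.1% of all genes had an unadjusted p under 0.05, 16.7% had groups that did not overlap, and the groups of 0 members were apart. The difference exceeded its standard error for 4 members, Csrp3, Ankrd2, Igfn1 and Mustn1. The share of all genes with such a difference was not computed, so nothing is read from this count either.

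**Figure D1:**
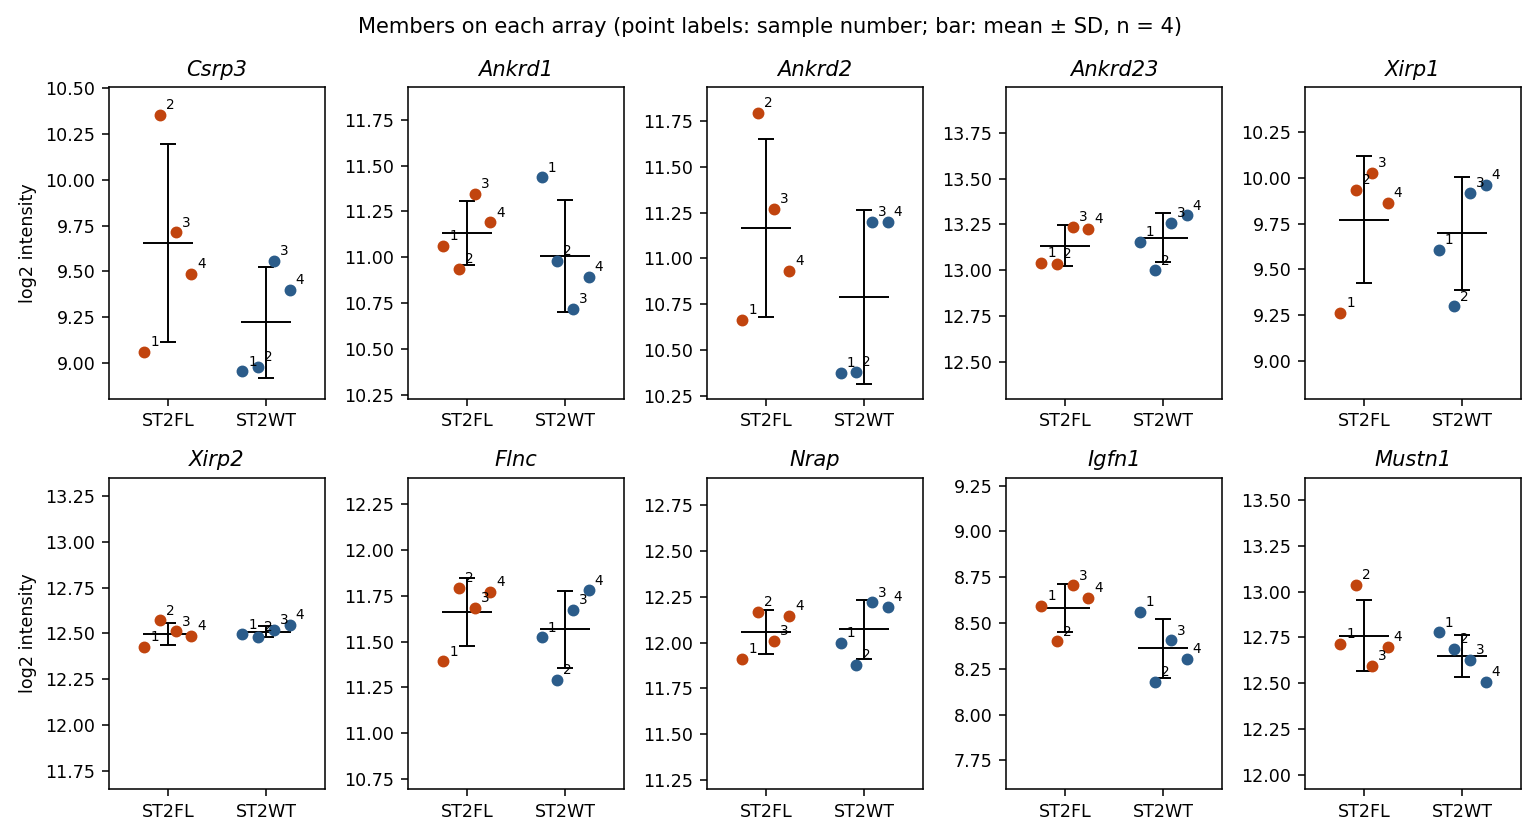
Log2 intensity of each member on each array, with ST2FL arrays left of ST2WT arrays, a point label giving the sample number and bars giving the mean ± SD (n = 4 per group). Every panel spans the same height in log2 units, which shows that Csrp3 and Ankrd2 spread over about 1.40 and 1.42 units while Xirp2 stayed within 0.14.

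Of the titin-binding ankyrin repeat genes, Ankrd2 had the widest spread. Its log2 intensity was 10.67, 11.80, 11.27 and 10.93 on ST2FL arrays 1 to 4, against 10.37, 10.38, 11.20 and 11.20 on ST2WT arrays 1 to 4. ST2FL arrays 2 and 3 lay above every ST2WT array, and ST2FL arrays 1 and 4 lay among them. ST2WT arrays fell into a low and a high pair, 1 and 2 low and 3 and 4 high. The means were 11.17 ± 0.49 in ST2FL and 10.79 ± 0.47 in ST2WT (SD, n = 4 each), a difference of 0.38 (SE 0.26), or 1.30-fold. Ankrd2 is known as the member of the family that slow fibres favour and that stretch induces in skeletal muscle.

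Ankrd1, the cardiac ankyrin repeat protein, which skeletal muscle makes in quantity after injury, ran another way over the same arrays. It was at 11.06, 10.93, 11.35 and 11.19 on ST2FL arrays 1 to 4, and at 11.44, 10.98, 10.72 and 10.89 on ST2WT arrays 1 to 4. The highest and the lowest array were both ST2WT, numbers 1 and 3, so all ST2FL arrays lay within the ST2WT range. The difference was 0.13 (SE 0.14), with means of 11.13 ± 0.18 in ST2FL and 11.01 ± 0.31 in ST2WT. Ankrd23, a gene of the same family linked to energy metabolism, varied less: 13.04, 13.03, 13.24 and 13.23 on ST2FL arrays 1 to 4, against 13.15, 13.00, 13.26 and 13.30 on ST2WT arrays 1 to 4. Its groups overlapped almost entirely, with numbers 3 and 4 the highest in both, and the difference was -0.04 (SE 0.08).

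Csrp3, whose protein tethers Z-disc partners and whose loss weakens heart and skeletal muscle, had the largest difference of the 10. Its log2 intensity was 9.06, 10.36, 9.71 and 9.49 on ST2FL arrays 1 to 4, against 8.95, 8.98, 9.56 and 9.40 on ST2WT arrays 1 to 4. As for Ankrd2, ST2FL arrays 2 and 3 lay above every ST2WT array and ST2FL arrays 1 and 4 did not. The means were 9.65 ± 0.54 in ST2FL and 9.22 ± 0.30 in ST2WT (SD, n = 4 each), a difference of 0.43 (SE 0.24), or 1.35-fold. From the lowest to the highest of the 8 arrays Csrp3 ranged over 2.64-fold and Ankrd2 over 2.68-fold. Such a range can never be smaller than the difference of the group means, so the 2 are not compared. The pooled within-group SD was 0.44 for Csrp3 and 0.48 for Ankrd2, against differences of 0.43 and 0.38. Their pooled within-group SD was larger than that of 99.3% and 99.4% of all genes tested.

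Among the actin-anchoring genes, Xirp1, Flnc and Nrap ranged more widely among the arrays of a group than between the genotypes. Xirp1, whose protein gathers at sites of fibre damage, was at 9.26, 9.93, 10.03 and 9.86 on ST2FL arrays 1 to 4, against 9.61, 9.30, 9.92 and 9.96 on ST2WT arrays 1 to 4. ST2FL array 1 was the lowest of the 8 and ST2FL array 3 the highest, and the difference of the means was 0.07 (SE 0.18). Flnc, which crosslinks actin at the Z-disc and membrane, was at 11.39, 11.79, 11.68 and 11.77 on ST2FL arrays 1 to 4, against 11.52, 11.29, 11.67 and 11.78 on ST2WT arrays 1 to 4. The low arrays were ST2FL array 1 and ST2WT array 2, and the difference was 0.09 (SE 0.12).

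Nrap, which organises actin at the ends of growing myofibrils, was at 11.91, 12.17, 12.01 and 12.14 on ST2FL arrays 1 to 4, and at 12.00, 11.88, 12.22 and 12.19 on ST2WT arrays 1 to 4. Its difference was -0.02 (SE 0.09), and the same pair of arrays, ST2FL 1 and ST2WT 2, was lowest. Xirp2 was the steadiest member, at 12.43, 12.57, 12.51 and 12.48 on ST2FL arrays 1 to 4, against 12.49, 12.48, 12.52 and 12.55 on ST2WT arrays 1 to 4. Its difference was -0.01 (SE 0.05), and only 4.96% of all genes had a smaller pooled within-group SD.

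Igfn1 had the smallest spread of the members with a difference above its standard error. It was at 8.59, 8.40, 8.71 and 8.64 on ST2FL arrays 1 to 4, against 8.56, 8.18, 8.41 and 8.30 on ST2WT arrays 1 to 4. ST2FL arrays 1, 3 and 4 lay above every ST2WT array, and ST2FL array 2 lay below ST2WT arrays 1 and 3. The means were 8.58 ± 0.13 in ST2FL and 8.36 ± 0.16 in ST2WT (SD, n = 4 each), a difference of 0.22 (SE 0.09), or 1.17-fold. Mustn1 was at 12.72, 13.04, 12.59 and 12.70 on ST2FL arrays 1 to 4, against 12.78, 12.69, 12.63 and 12.51 on ST2WT arrays 1 to 4. ST2FL array 2 stood above the other arrays, which overlapped, and the difference was 0.11 (SE 0.10).

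**Figure D2:**
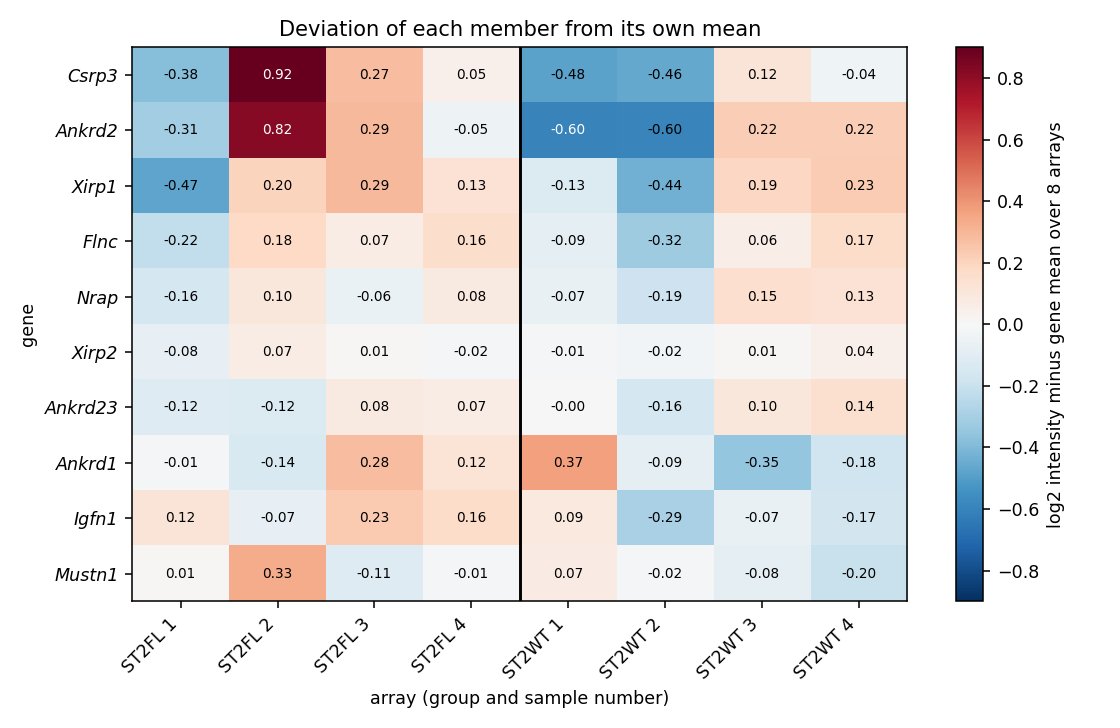
Log2 intensity of each member (rows) on each array (columns, ST2FL left of ST2WT) minus the mean of that gene over the 8 arrays. Csrp3 was 0.92 and Ankrd2 0.82 above its mean on ST2FL array 2, and ST2WT array 2 was below the mean for all 10 genes.

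Single arrays carried much of what differed. ST2FL array 2 was the highest of the 8 for 5 of the 10 members (Csrp3, Ankrd2, Xirp2, Flnc and Mustn1). ST2WT array 2 was the lowest for 4 (Ankrd23, Flnc, Nrap and Igfn1) and lay below the mean of the gene for all 10, while ST2FL array 1 lay above it for 2. Averaged over the 10 centred members, the ST2FL arrays 1 to 4 stood at -0.16, 0.23, 0.14 and 0.07, against -0.09, -0.26, 0.04 and 0.03 on the ST2WT arrays 1 to 4. The 2 extreme ends of this average were thus the pair of arrays numbered 2. How often each array was highest or lowest was not counted over all genes.

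Leaving out 1 array at a time moved the differences as follows. Without ST2FL array 2, that of Csrp3 was 0.20 and that of Ankrd2 0.17, against 0.43 and 0.38 over all arrays. Without ST2FL array 1 they were 0.63 and 0.54. The difference of Mustn1 was 0.02 without ST2FL array 2 and that of Flnc 0.002 without ST2WT array 2. The difference of Igfn1 stayed between 0.16 (without ST2WT array 2) and 0.29 (without ST2WT array 1), and that of Ankrd1 lay between 0.03 (without ST2WT array 3) and 0.27 (without ST2WT array 1). Without ST2FL array 2 the groups of 1 member, Igfn1, no longer overlapped, where the same held for 2.79% of all genes. For 7 members the sign was the same in all 8 of these fits, and for 3 it turned. Kept signs were not counted over all genes, so nothing particular to the members is read from this. The difference of Xirp1 turned to -0.01 without ST2FL array 3 and -0.06 without ST2WT array 2, that of Xirp2 to 0.01 without ST2FL array 1 and 0.002 without ST2WT array 4, and that of Nrap in 4 of the 8 fits, within -0.08 to 0.03. The median over the members ranged from 0.03 (without ST2FL array 2) to 0.17 (without ST2FL array 1).

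The differences also varied with the sample number. Earlier results of these data showed that numbers 1 and 2 differ from numbers 3 and 4 in both groups, and the labels do not say what a number stands for. Within numbers 1 and 2, with 2 arrays against 2, Ankrd2 differed by 0.85 and Csrp3 by 0.74, and within numbers 3 and 4 by -0.10 and 0.12. Ankrd1 ran the other way, with -0.21 within numbers 1 and 2 and 0.46 within numbers 3 and 4. Igfn1 was higher in ST2FL in both, by 0.13 and 0.32, as was Mustn1, by 0.14 and 0.08. Groups of 2 did not overlap for 2 members within numbers 1 and 2 (Csrp3 and Ankrd2, both higher) against 56% of all genes. Within numbers 3 and 4 they did not overlap for 5 members (Ankrd1 and Igfn1 higher, Ankrd23, Xirp2 and Nrap lower) against 30.5% of all genes. Whether these within-number differences differ from each other was not tested.

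**Figure D3:**
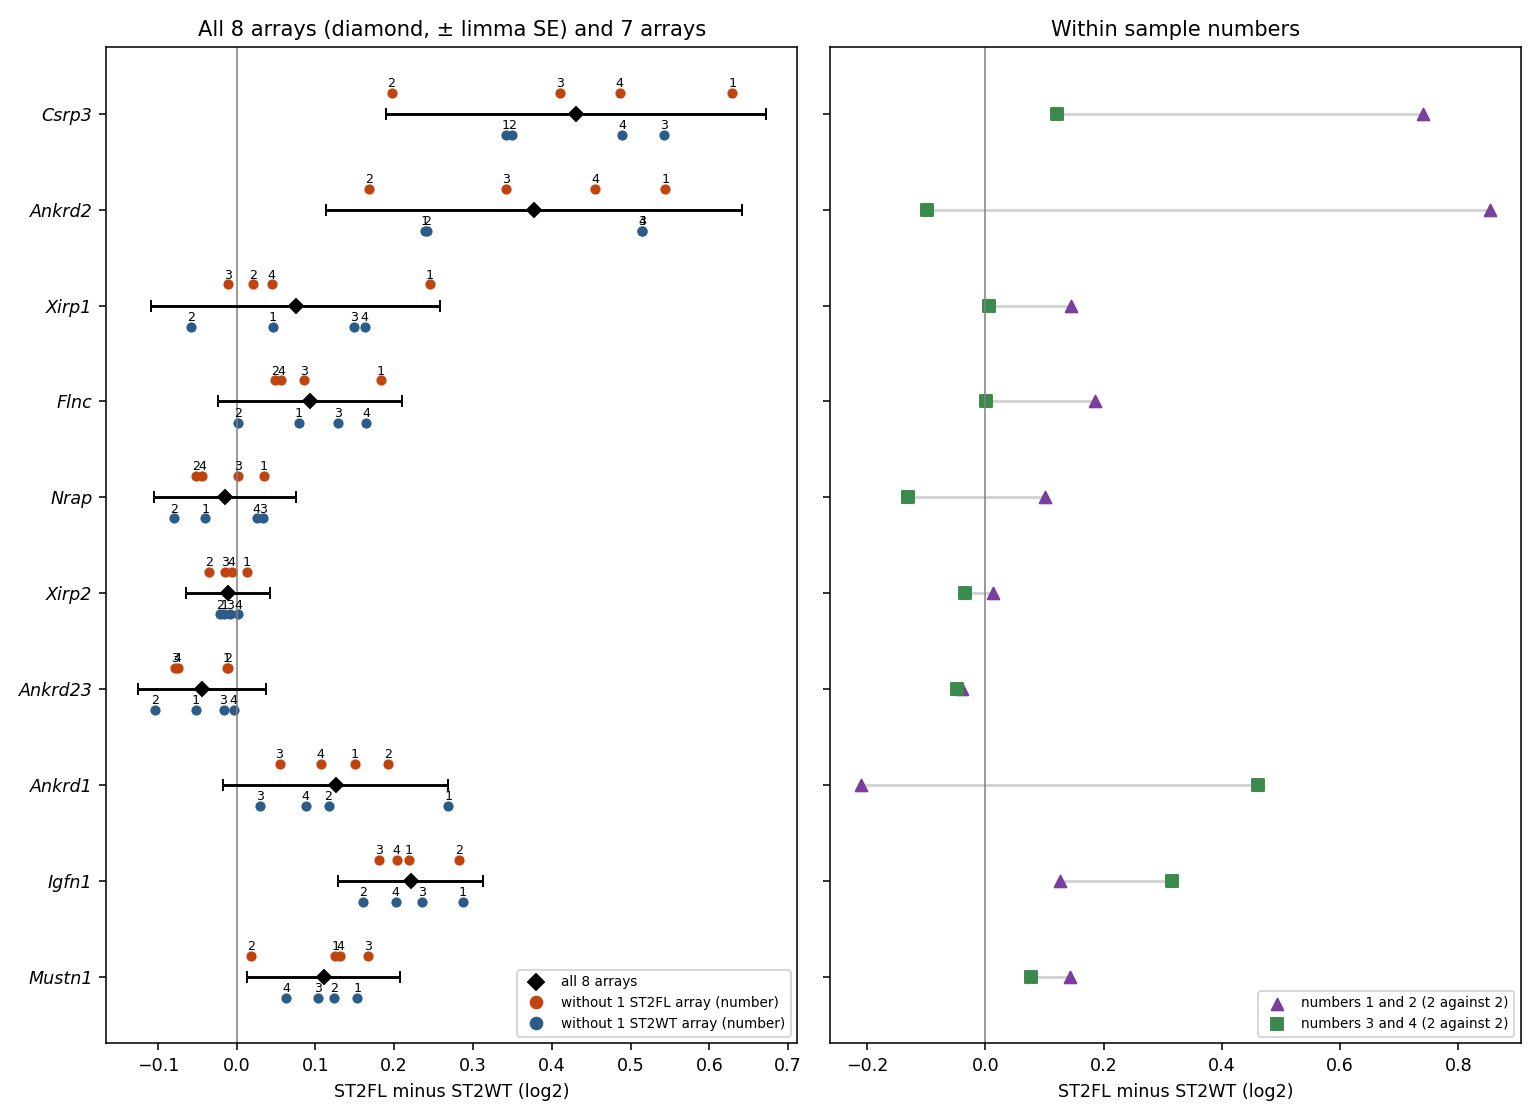
Left, the difference of ST2FL minus ST2WT in log2 units for each member over all 8 arrays (diamond, bar ± limma SE) and with each array left out in turn (points, labelled by the sample number left out). Right, the same difference within numbers 1 and 2 and within numbers 3 and 4, with 2 arrays against 2, where Ankrd2 lay at 0.85 and -0.10 and Ankrd1 at -0.21 and 0.46.

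Some members varied together across the arrays, without a sharp line between these and the others. Over the 45 pairs of members, Pearson's r across the 8 arrays was above 0 for 33, with a median of 0.27. The same was not computed for pairs of all genes, so nothing particular to the members is read from this count and median. Csrp3 and Ankrd2 were the closest pair, with r = 0.96 (exact two-sided permutation p = 4.46e-04, 0.0201 after Benjamini-Hochberg adjustment over the 45 pairs). Spearman's rho was 0.93 (exact permutation p = 0.00223, 0.100 after adjustment). Without the 2 arrays farthest from the median of Csrp3, ST2FL array 2 and ST2WT array 1, r was 0.92. After the group means were taken out it was 0.95, and after the means of numbers 1 and 2 and of numbers 3 and 4 were taken out it was 0.97. This was the only pair with an adjusted p under 0.05 by r, and by rho 0 pairs had one. Members were named with the genotype contrast known, and Csrp3 and Ankrd2 had its largest differences. The p-values of pairs, here and below, are therefore given as a description. The permutations also took all orders of the arrays as equally likely, which genotype and sample number may break.

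Xirp1 and Flnc followed at r = 0.93 (exact permutation p = 0.00476, adjusted 0.0714) and Flnc and Nrap at 0.89 (exact permutation p = 0.00357, adjusted 0.0714). Without the 2 arrays farthest from the median, these were 0.72 and 0.67. Picked after these values were seen, the 6 genes Csrp3, Ankrd2, Xirp1, Xirp2, Flnc and Nrap had r between 0.63 and 0.96 in all 15 of their pairs, and between 0.73 and 0.95 with the group means taken out. Without the 2 arrays farthest from the median of the first gene of a pair, the lowest of the 15 was 0.41, for Xirp1 and Nrap (0.82 over all arrays), and Xirp1 and Xirp2 came to 0.46 (0.78 over all arrays), both without ST2FL array 1 and ST2WT array 2. Ankrd23, left out of the 6, had r of 0.73 with Xirp1, 0.65 with Flnc and 0.65 with Nrap, within their range of 0.63 to 0.96. With Csrp3, Ankrd2 and Xirp2 it had 0.10, 0.27 and 0.32. The choice of 6 is thus not a sharp division. The points share the arrays, so anything that differs between arrays as a whole enters each of these values.

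The ankyrin repeat genes did not share a course over the 8 arrays. The r of Ankrd1 was -0.38 with Ankrd2 and 0.002 with Ankrd23, and that of Ankrd2 with Ankrd23 was 0.27, with exact permutation p of 0.347, 0.996 and 0.513. Without ST2FL array 2 and ST2WT array 1, the r of Ankrd2 with Ankrd23 was 0.94. The member that Ankrd1 came closest to was Igfn1, at r = 0.67 (exact permutation p = 0.0700, adjusted 0.185). Their rho was 0.64 (exact permutation p = 0.0962). Ankrd23 and Mustn1 had the most opposed pattern, at r = -0.66 (exact permutation p = 0.0512, adjusted 0.149), which came to -0.16 once the means of numbers 1 and 2 and of numbers 3 and 4 were taken out.

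**Figure D4:**
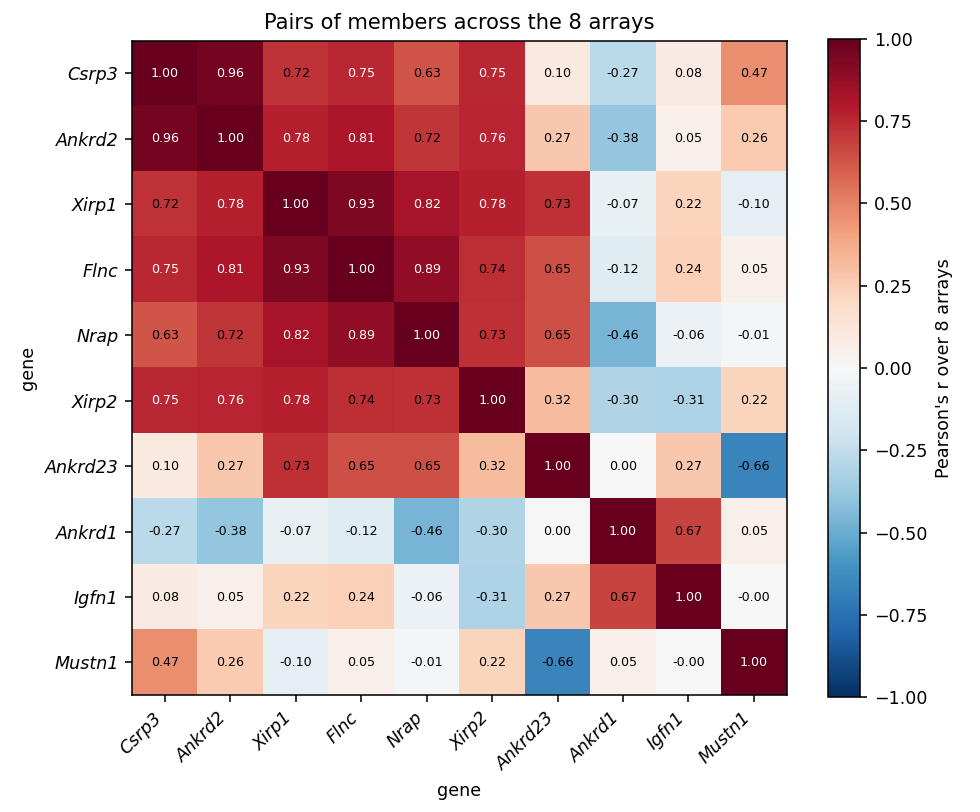
Pearson's r over the 8 arrays for each pair of members, with the genes on both axes in the same order. Csrp3, Ankrd2, Xirp1, Flnc, Nrap and Xirp2 form a block of r from 0.63 to 0.96, while Ankrd1 reached -0.46 with Nrap and 0.67 with Igfn1. With the genes of this block Ankrd23 had r from 0.10 (Csrp3) to 0.73 (Xirp1).

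Outside the 10 genes, those with the most similar course over the 8 arrays were looked up among 7495 genes that varied at least as much as the median gene. These r values are the highest of that search and are given as a description only. For Csrp3 they were Bub1 and Mad2l1 of the mitotic checkpoint, Clic4, Nrm and the LIM-domain gene Fhl1, with r of 0.94 to 0.96. For Ankrd2 they were Fhl1 (0.98), Mad2l1, Myh2, which encodes the myosin of fast oxidative fibres, Stmn2 and Stn1 (0.96). Fhl1 and Mad2l1 were thus on the lists of both Csrp3 and Ankrd2.

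The small heat shock protein gene Hspb7, whose product binds filamin C, had the course nearest to that of Flnc (0.99), followed by Atp1b4, Hspb6, Dnaja4 and Lmcd1 (0.94). For Xirp1 they were Phospho2 (0.99), the fast myosin gene Myh1, the Z-disc actinin gene Actn2, Efna2 and Myom3 (0.95), and for Nrap Adamtsl5 (0.95), Hk2, Ugp2, Bag3 and Fgf1 (0.92). Xirp2, with little variation to match, was nearest to Hspa1a (0.88), Egln3, Tmc8, Nanp and Opn3 (0.86).

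For Ankrd23 they were Stbd1 (0.98), Tmem182, Mrfap1, Rtn4ip1 and Ubac1 (0.97), and for Ankrd1 Prepl (0.89), Klk13, Pnmt, Cgref1 and Mamdc2 (0.87). Igfn1 was nearest to Zim1 (0.93), with Krt18, Kif22, Gm5771 and Krt8 (0.81) after it, and Mustn1 to Fosl1 (0.96), Fmnl1, Stc1, Gpr176 and Cyb5r3 (0.93). The average over the 10 members was nearest to Atp1b4 (0.98), a muscle gene of the sodium pump family, then Spry4, Lmcd1, Rab15 and Ccnd1 (0.95).

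Genes that work with the members were taken from lists fixed by function. Of 36 Z-disc and titin partners 34 were tested, of which 15 had a higher and 19 a lower mean in ST2FL (48.8% of all genes were higher), with a median difference of -0.02. In limma 0 of them passed after adjustment, and the 2 with an unadjusted p under 0.05, Fhl3 and Cmya5, were lower, where 3.79% of all genes had such a p. Titin itself (Ttn), which the ankyrin repeat proteins bind, varied little: 13.30 to 13.37 on the ST2FL arrays, against 13.35 to 13.38 on the ST2WT arrays, a difference of -0.03 (SE 0.05). Tcap, the titin cap and a partner of Csrp3 and Ankrd2, differed by -0.11 (SE 0.11), and the Z-disc scaffold genes Ldb3 and Synpo2l by -0.03 (SE 0.08) and -0.13 (SE 0.08).

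The LIM-domain genes Fhl1 and Lmcd1 differed by 0.09 (SE 0.10) and 0.15 (SE 0.11), each highest on ST2FL array 2. Smpx, a small protein gene responsive to stretch, differed by 0.003 (SE 0.08), the ubiquitin ligase gene Trim63, which marks atrophy, by -0.08 (SE 0.13) and the integrin partner gene Itgb1bp2 (melusin) by 0.04 (SE 0.11). The nebulin-associated genes Klhl40 and Klhl41 differed by 0.07 (SE 0.12) and -0.02 (SE 0.06). Capn3 is not analysed here.

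Of 18 chaperone genes that serve filamin and the Z-disc 17 were tested, 9 higher and 8 lower in the mean (48.8% of all genes were higher). In limma 0 had an adjusted or an unadjusted p under 0.05, where 3.79% of all genes had such an unadjusted p. Bag3, the co-chaperone that clears damaged filamin, lay at 9.89 to 10.31 on the ST2FL arrays, against 9.92 to 10.42 on the ST2WT arrays, with a difference of -0.03 (SE 0.13). Hspb7 differed by 0.17 (SE 0.20), Hspb1 by 0.14 (SE 0.13) and Cryab by 0.02 (SE 0.09). Without ST2WT array 2 these were 0.03, 0.02 and -0.04, and that of Bag3 was -0.12. Hspb1, Hspb7 and Cryab were all lowest on ST2WT array 2, the array on which Flnc was lowest too.

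Of 21 genes of stretch-linked transcription 20 were tested, 14 higher and 6 lower in the mean (48.8% of all genes were higher), with a median of 0.03. In limma 0 passed after adjustment, and 3 (Ccn2, Myh9 and Nuak2), all higher, had an unadjusted p under 0.05, as did 3.79% of all genes. Ccn2, a target of YAP that like Ankrd1 is often read as a sign of its activity, lay at 10.07 to 10.47 on the ST2FL arrays, against 9.96 to 10.17 on the ST2WT arrays, a difference of 0.21 (SE 0.08), or 0.15 without ST2FL array 2. Ccn1, another such target, differed by 0.07 (SE 0.13), the TEAD factor gene Tead4 by 0.03 (SE 0.07) and the serum response factor gene Srf by -0.03 (SE 0.08).

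The muscle context of these arrays was read from marker lists. Mature fast-fibre genes, 10 of 10 tested and led by such genes as Acta1 and Ckm, were bright on all arrays, with summed intensities of 100089 to 108485 on the ST2FL arrays, against 99935 to 108904 on the ST2WT arrays. Regenerating-fibre genes, 10 of 10 tested, summed to 23137 to 30297 in ST2FL, against 24364 to 27540 in ST2WT, and the mean of their centred log2 values was lowest on ST2FL array 1 (-0.27, against -0.08 to 0.18 on the other 7). Among them Myh3, the embryonic myosin gene, differed by 0.10 (SE 0.15), the myogenic factor gene Myog by 0.08 (SE 0.10) and the cardiac actin gene Actc1 by 0.13 (SE 0.12). The difference of Myh3 was 0.02 without ST2FL array 2 and 0.26 without ST2FL array 1, that of Myog 0.01 without ST2FL array 4 and 0.16 without ST2FL array 1, and that of Actc1 0.05 without ST2WT array 2.

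Slow-fibre genes, 7 of 7 tested, summed to 4366 to 6023 in ST2FL, against 5117 to 5585 in ST2WT, and were also lowest on ST2FL array 1 (-0.35). Myh7 differed by -0.16 (SE 0.20), or 0.01 without ST2FL array 1 and -0.30 without ST2WT array 4, and Tnni1 by 0.08 (SE 0.14), or 0.01 without ST2FL array 4 and 0.25 without ST2FL array 1. Of the 24 fibre and partner genes named here with a difference, the sign turned for 12 when 1 array was left out, a count not made over all genes. ST2FL array 1 was likewise the lowest for Xirp1 and Xirp2 and below the mean of the gene for 8 of the 10 members. The part of these fibre genes in the members' values was not tested. The list means of the Z-disc partners and of the chaperones were lowest on ST2WT array 2 (-0.11 and -0.19), as were 4 of the members.

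Of the other cell types, macrophage genes (8 of 8 tested) summed to 9621 to 15324 in ST2FL, against 10411 to 13060 in ST2WT. All 8 had a higher mean in ST2FL (48.8% of all genes did), with a median difference of 0.20. Of the 8, 1, Cd14, had an unadjusted p under 0.05 in limma (3.79% of all genes did). T cell genes (4 of 6 tested) summed to 512 to 726, against 482 to 524, and all 4 tested had a higher mean in ST2FL, with a median of 0.16 and 2, Cd3g and Cd4, at an unadjusted p under 0.05. After adjustment 0 of these genes passed. Both medians were above the 0.10 of the members. On ST2FL arrays 1 to 4 the mean of the centred macrophage genes was 0.37, 0.38, 0.05 and -0.40, against -0.13, 0.01, -0.12 and -0.17 on ST2WT arrays 1 to 4, so ST2FL array 4 was the lowest. The mean of the centred T cell genes was 0.23, 0.38, 0.14 and -0.14 on ST2FL arrays 1 to 4, against -0.22 to -0.09 on the ST2WT arrays. ST2FL array 4 thus lay within the ST2WT range.

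Fibroblast genes (5 of 5) summed to 16829 to 22219 in ST2FL, against 18376 to 20605 in ST2WT. Satellite cell genes (5 of 5) summed to 1398 to 1449 in ST2FL, against 1353 to 1437 in ST2WT, tendon genes (4 of 4) to 3998 to 4523, against 3927 to 4371, and cardiac genes (5 of 5) to 534 to 678, against 629 to 655. Smooth muscle genes (5 of 5) summed to 1720 to 1829 in ST2FL, against 1643 to 1694 in ST2WT, and endothelial genes (4 of 4) to 4187 to 4615, against 3959 to 4219. Adipocyte genes (3 of 4 tested) summed to 478 to 790, against 532 to 655, and skin keratinocyte genes (3 of 5) to 299 to 431, against 364 to 1336. The median difference was 0.12 for smooth muscle genes. Of these, 3 of 5 had an unadjusted p under 0.05 in limma (Cnn1 and Lmod1 higher, Actg2 lower), against 3.79% of all genes. The median was 0.10 for endothelial genes, all 4 higher, where 48.8% of all genes were higher. For keratinocyte genes it was -0.43, all 3 lower and bright on ST2WT array 4. For fibroblast, tendon, satellite cell, adipocyte and cardiac genes it was 0.07, 0.05, -0.005, -0.03 and -0.10. No tested marker was at an intensity of 0, but the lowest value of the whole table was 5.81, so this does not show that a cell type was present. The part of these markers in the members' values was not tested.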

How the data were processed

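The deposited file held 1 table of intensity values on a linear scale (5.81 to 19080), made by the authors with RMA in Affymetrix Power Tools, per the submitters' processing notes. RMA corrects background, aligns the arrays' distributions and summarises probes, so a shift shared by most genes would not show, and bright or dim rows are compressed. Versions, the genome build and filters were not given in the sources used here. Array medians lay between 185 and 189, and precision is limited by having 4 arrays a group.

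The log2 of each value was taken with no pseudocount. Rows with 1 gene symbol in the platform annotation (21425 of 24922; 1399 had several and 2098 none) were named, 21347 of them also by RefSeq (GRCm38.p6). Rows with a mean under the 25th percentile (log2 6.35) were left out, and the brightest row per gene was kept, leaving 15007 genes. ST2FL was compared with ST2WT by limma 3.58.1 in R 4.3.3 on group alone, with Benjamini-Hochberg adjustment over all genes (threshold 0.05). The fit was tested on simulated data. Correlations between members were tested exactly over all 40320 orders of the arrays. Members, lists and tests were chosen with earlier results of these data known. Genes of similar course were the 5 with the highest r for each member and for their average. Partner genes were named by a fixed list. Alternatives covered normalization, filter, row choice, variance model, replicate block, arrays left out and sample numbers.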

Additional observations from a re-analysis of the deposited data

How the results depend on the processing

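The signs of all 10 members were the same under quantile, cyclic loess and median scaling. RMA had already aligned the arrays, with medians of 185 to 189, so these scalings had little left to change and are a weak check. Other settings were no filter, a filter at the 50th percentile, the mean of a gene's rows, an intensity trend and robust variances. Each member had 1 row, so these other settings could not change its difference and say nothing about its sign. Under the scalings and the other settings, 0 genes passed in limma, and 3.43% to 4.29% of all genes had an unadjusted p under 0.05. Leaving out 1 array gave 0 to 2 genes called, the 2 being Cd3g and Ctsh without ST2FL array 4 (where 3012 genes had an unadjusted p under 0.05, against 569 over all arrays), and 0 to 1 members with groups apart (Igfn1, without ST2FL array 2, against 2.79% of all genes), named after their values were seen. Numbers 1 and 2 alone gave 8 genes called, none of them a member, and 2 members with groups apart, against 56% of all genes, and numbers 3 and 4 alone gave 0 genes called and 5 members with groups apart, against 30.5% of all genes. The cause was not tested.

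With the sample number as a replicate block, limma called 0 genes, and an unadjusted p under 0.05 was seen for 694 genes, against 569 without it. Same-numbered deviations from the group means correlated over genes at -0.0017, 0.35, 0.25 and 0.042 for numbers 1 to 4, and ST2FL array 1 was closest to ST2WT array 2 (0.27), so the numbers were not taken as pairs. A block for numbers 1 and 2 against 3 and 4, added after seeing the data, also gave 0 calls. With 4 arrays a group, differences below the standard errors given cannot be resolved, and a difference above its standard error is not resolved by that alone.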

Other observations

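The members also differed between sample numbers across both genotypes. Over the 4 arrays numbered 1 and 2 (ST2FL and ST2WT together) against the 4 numbered 3 and 4, 8 of the 10 members had the lower mean. Xirp1 averaged 9.53 on numbers 1 and 2 and 9.94 on numbers 3 and 4, a difference of -0.42, Ankrd2 differed by -0.35, Flnc by -0.23, Csrp3 and Ankrd23 by -0.20 each and Nrap by -0.15. Mustn1 was the other way, at 12.80 on numbers 1 and 2 and 12.61 on numbers 3 and 4, a difference of 0.20, as was Ankrd1 by 0.07. The split comes from earlier results of these data, so no test is given. The share of all genes with the lower mean on numbers 1 and 2 was not computed. Nothing particular to the members is therefore read from these values.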
